A study of Mus musculus with 6 samples.

Results

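The GC-rich miRNAs described here are mmu-miR-2861, mmu-miR-3960, mmu-miR-5126, mmu-miR-8101, mmu-miR-8110, mmu-miR-7686-5p, mmu-miR-6366 and mmu-miR-3620-3p (mmu marks mouse and is left out below), 8 of the 1881 mouse miRNAs on the arrays. They were selected on 2 measures, detection on the arrays and a brightest probe that is at least 80% G and C. Of 47 miRNAs on the arrays that met this limit on the probe, these 8 were detected in every sample of one group or both and could be tested. Another 39 could not. Detection and probe composition chose the members and are given as a description. The choice was made with earlier results of these data known.

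The arrays compare the left ventricle of male C57BL/6 mice given vehicle (control, 3 samples) with that of mice given sunitinib (3 samples). Sunitinib is a tyrosine kinase inhibitor used against cancer, and the series asks about miRNAs in the heart dysfunction it can cause. Each sample of 200 ng of total RNA was labelled with Cy3 and hybridised alone to an Agilent mouse miRNA array. Dose, duration and age are not given in the labels used here, and nothing in them ties each sample to a separate mouse. The p-values therefore cover the spread between samples, part of which may be technical. In whole ventricle tissue, fewer cells of a type and less RNA per cell cannot be told apart.

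MicroRNAs are short RNAs that guide Argonaute proteins to messenger RNAs, mostly through pairing of the seed near their 5′ end. miR-2861 and miR-3960 come from neighbouring hairpins and are best known from bone-forming cells, where miR-2861 represses the histone deacetylase gene Hdac5 and miR-3960 represses the homeobox gene Hoxa2. Both targets hold back Runx2, the master transcription factor of osteoblasts. Less is established about the other members, most of which were annotated late from sequencing.

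The probes are shown because they set what each measurement reads. An Agilent miRNA probe pairs with the 3′ end of its miRNA and is shortened until its melting temperature fits, so a GC-rich miRNA is read through very few bases. Each miRNA had a pair of probes that differ by 1 base in length. The brighter probe stood for the miRNA, and it was the longer of the pair for miR-2861, miR-3960, miR-5126, miR-8101, miR-8110 and miR-7686-5p. The brightest probes, as given in the scanner files, 5′ to 3′ with G and C in capitals, were:
miR-2861: CCGCCCGCCG
miR-3960: CCCCCGCCtCCG
miR-5126: CCCCGCCCCCG
miR-8101: GGCtCCtCCGGC
miR-8110: CCCCCCCCCCa
miR-7686-5p: GCCCaGCCCCaG
miR-6366: tGGCtCCCCGG
miR-3620-3p: tGGGGtGGGCG

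They are 10 to 12 bases long, against a median of 17 bases over the 237 tested miRNAs. Only 10 tested miRNAs had a brightest probe of up to 12 bases, and 8 of these are the members. The files map none of the members' probes to the genome. The RefSeq table of assembly GRCm38.p6 holds the mature sequence of 7 members, each of which ends in the exact complement of its probe, and none of the other mature miRNAs among the 1679 in the table contains the complement of any of the 16 probes. The table does not hold the mature miR-3960. Only exact matches within mature miRNAs were searched. Partial matches and other RNAs in the total RNA were not, so what else these short probes may bind was not tested.

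The mature sequences are shown with the seed, bases 2 to 8, in capitals:
miR-2861: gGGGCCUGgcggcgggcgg
miR-5126: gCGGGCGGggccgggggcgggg
miR-8101: gGCGAGCGgagccggaggagcc
miR-8110: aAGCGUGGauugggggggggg
miR-7686-5p: cCUUCCACuggaccuggggcugggc
miR-6366: aGCUAAGGggcccggggagcca
miR-3620-3p: cUGCUCAGccccgcccacccca

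The 7 seeds all differ, so these miRNAs do not form a seed family. The seed of miR-2861 is shared with 1 other mature miRNA in the table, miR-3091-3p, and the other 6 seeds with none. G and C make up between 71.4% of the mature sequence (miR-8110) and all of it (miR-5126). In the whole table the median is 52.2%, and 4.47% of mature miRNAs reach 71.4%. The members differ in which of the 2 bases prevails. G makes up 77.3% of miR-5126, 68.4% of miR-2861 and 66.7% of miR-8110, whose last 10 bases are all G, but only 13.6% of miR-3620-3p, in which 63.6% is C.

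The hairpins of miR-2861 and miR-3960 lie on the minus strand of chromosome 2, 11 bases apart, and are shown as a pair with the bases opposite the brightest probe in capitals. RefSeq places them at chr2:32712807-32712888 and chr2:32712900-32712972 (GRCm38.p6, minus strand), outside any other annotated gene:
miR-2861 hairpin: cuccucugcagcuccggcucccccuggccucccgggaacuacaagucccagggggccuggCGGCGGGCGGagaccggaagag
miR-3960 hairpin: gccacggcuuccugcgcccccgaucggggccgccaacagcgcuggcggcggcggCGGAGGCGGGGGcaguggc

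The other members lie elsewhere. miR-5126 (chr1:84695890-84695911, plus strand) falls within Dner, which encodes a Notch-related transmembrane protein of neurons. miR-8101 (chr11:102230103-102230124, minus strand) falls within Hdac5, the gene named above as a target of miR-2861. miR-7686-5p (chr7:139957598-139957622, minus strand) falls within the long noncoding RNA gene Gm16201. miR-8110 (chr8:89024791-89024811, plus strand) and miR-6366 (chr16:18165093-18165114, minus strand) overlap no other annotated gene, with Sall1 and Gm34679 as the nearest, and miR-3620-3p is at chrX:150547385-150547406 on the minus strand. Exons, introns and the strand of the overlapping genes were not analysed here.

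In sunitinib ventricles miR-3960, miR-5126 and miR-2861 rose, by 1.70-fold, 1.56-fold and 1.29-fold, and the other 5 members did not pass the test. All values below are log2 intensities after scaling between arrays, and differences are sunitinib minus control on that scale, tested by limma over all 237 tested miRNAs with Benjamini-Hochberg adjustment at 0.05. The 3 members that rose of 8 stand beside a share of 1.69% called higher among all tested miRNAs, which is 4 miRNAs including these 3. None of the 8 fell, beside 1.69% of all tested miRNAs called lower, and at an unadjusted p under 0.05 none was lower either, beside 8.44%. At an unadjusted p under 0.05, 5 members were higher, beside 10.5% of all tested miRNAs. The median difference was 0.36 over the members and 0.02 over all tested miRNAs. Because the members were chosen with earlier results of these data known, these shares and medians are a description and not a test of the group.

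**Figure D1:**
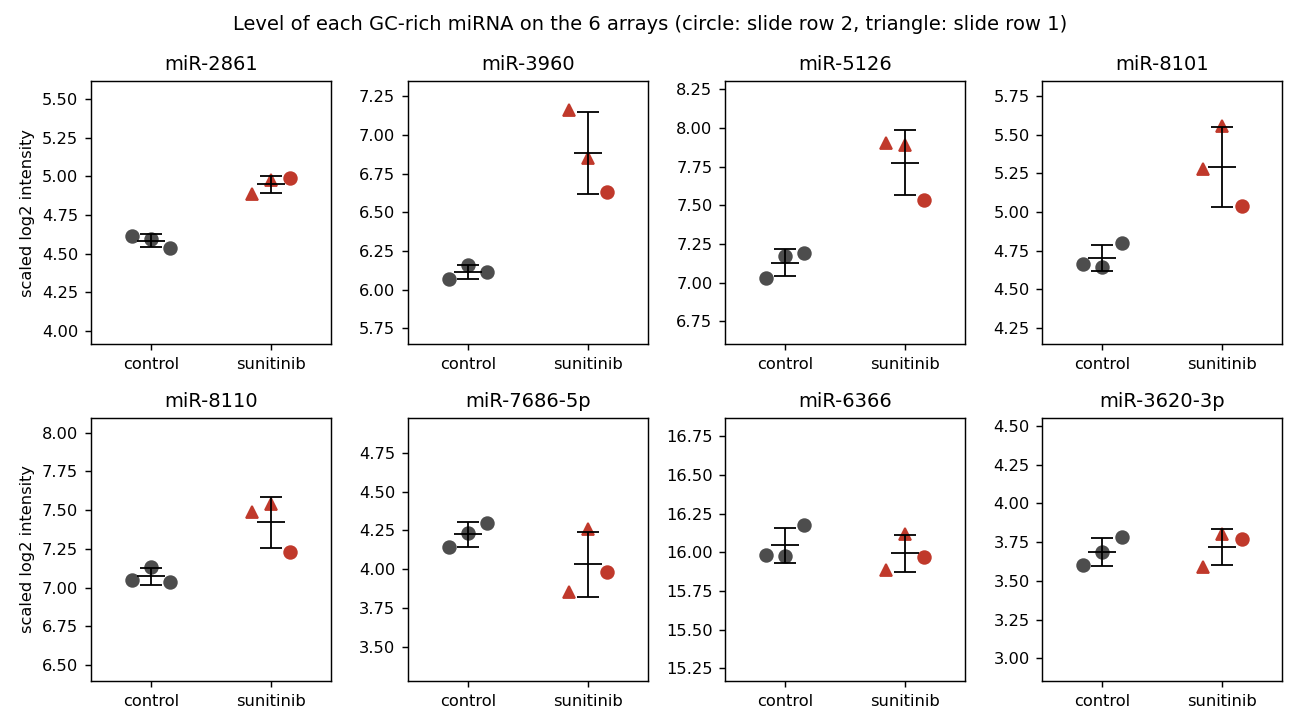
Scaled log2 intensity (y axis) of each of the 8 miRNAs in 3 control (grey) and 3 sunitinib (red) samples, each panel spanning the same range. Points are samples in the order of replicates 1 to 3, circles lay in slide row 2 and triangles in slide row 1, and the horizontal line with bars is the mean ± SD (n = 3). The groups do not overlap for miR-2861, miR-3960, miR-5126, miR-8101 and miR-8110 and overlap for the other 3.

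In the order of replicates 1 to 3, which holds for all values below, miR-3960 read 6.07, 6.16 and 6.12 in control and 7.16, 6.85 and 6.63 in sunitinib. Every sunitinib sample was above every control sample, and the sunitinib samples were the more spread. The means were 6.11 ± 0.05 and 6.88 ± 0.27 (SD, n = 3 each), a difference of 0.77 (SE 0.14, limma adjusted p = 0.037).

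miR-2861, from the hairpin beside it, read 4.62, 4.59 and 4.54 in control and 4.88, 4.97 and 4.99 in sunitinib. Both groups were narrow and apart from each other, and the order of the sunitinib samples differed from that of miR-3960, whose highest sample, sunitinib replicate 1, was the lowest here. The difference was 0.37 (SE 0.06, limma adjusted p = 0.037), from 4.58 ± 0.04 to 4.95 ± 0.06 (SD, n = 3 each). It was the smallest of the differences that passed among the members. A difference between the responses of the neighbouring miRNAs was not tested.

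miR-5126, whose mature sequence holds no A or U, read 7.03, 7.17 and 7.19 in control and 7.90, 7.89 and 7.53 in sunitinib. Sunitinib replicate 3 lay closest to the controls. The means of 7.13 ± 0.09 and 7.77 ± 0.21 (SD, n = 3 each) differed by 0.65 (SE 0.12, limma adjusted p = 0.037).

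miR-8101 and miR-8110 had sunitinib samples above all controls but did not pass the test. miR-8101 read 4.67, 4.64 and 4.80 in control and 5.28, 5.55 and 5.04 in sunitinib. Its difference of 0.59 (SE 0.14, limma adjusted p = 0.086) had a 95% interval from 0.26 to 0.92. miR-8110 read 7.05, 7.14 and 7.04 in control and 7.49, 7.54 and 7.23 in sunitinib, a difference of 0.35 (SE 0.10, limma adjusted p = 0.114) with a 95% interval from 0.12 to 0.58. With these, 5 of the 8 members had sunitinib samples above every control sample, beside 18.1% of all tested miRNAs.

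For the remaining 3 members the groups overlapped. miR-6366 gave a strong signal in every sample, 15.99, 15.98 and 16.18 in control and 15.89, 16.12 and 15.97 in sunitinib. By mean level it was the brightest of all tested miRNAs, just above miR-1a-3p of heart muscle (control means 16.05 and 15.93). The difference of miR-6366 was -0.05 (SE 0.09, limma adjusted p = 0.786). The 95% interval runs from -0.27 to 0.17, so a change of the size seen for miR-2861 in either direction lies outside it. No spot of any miRNA probe was saturated on any array. Whether the 11-base probe of miR-6366 still follows a change in level at so high a signal, or reads other RNAs, was not tested.

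miR-7686-5p read 4.14, 4.23 and 4.30 in control and 3.85, 4.26 and 3.98 in sunitinib. The difference of -0.19 (SE 0.12, limma adjusted p = 0.420) has the opposite sign to those of the members that rose, with a 95% interval from -0.47 to 0.09. miR-3620-3p read 3.60, 3.68 and 3.78 in control and 3.59, 3.80 and 3.77 in sunitinib, a difference of 0.03 (SE 0.09, limma adjusted p = 0.882). It was detected on all 3 control arrays and on 2 of 3 sunitinib arrays, so it entered the test through the control group, while the other 7 members were detected on all 6 arrays.

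Both probes of a miRNA were printed in 15 spots on each array, of which 12 to 15 were used. For all 8 members the shorter and the longer probe differed in the same direction between groups. The shorter probe lies within the longer and both read the same samples, so their shared direction is not independent support. At the dimmer probe the difference was 0.33 for miR-2861, 0.88 for miR-3960 and 0.78 for miR-5126, each with no overlap between groups. It gave 0.41 for miR-8110 and -0.04 for miR-6366.

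The probes of miR-8101 differed most. Its shorter probe read 3.39, 3.65 and 3.32 in control and 4.99, 4.89 and 4.49 in sunitinib, a difference of 1.34 against 0.59 at the longer one. That shorter probe was detected on all 3 sunitinib arrays but on 1 of 3 control arrays. Most of its control values are therefore not well above background, and the size of 1.34 rests on them. So does the call it gave with the dimmer probe standing for each member (limma adjusted p = 0.0080), and that call is given as a description only. The dimmer probe gave 0.30 for miR-3620-3p, detected on 1 of 3 control and 2 of 3 sunitinib arrays, and -0.39 for miR-7686-5p, detected on 3 of 3 and 1 of 3. The dimmer probe was detected on all 6 arrays for the other 5 members.

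**Figure D2:**
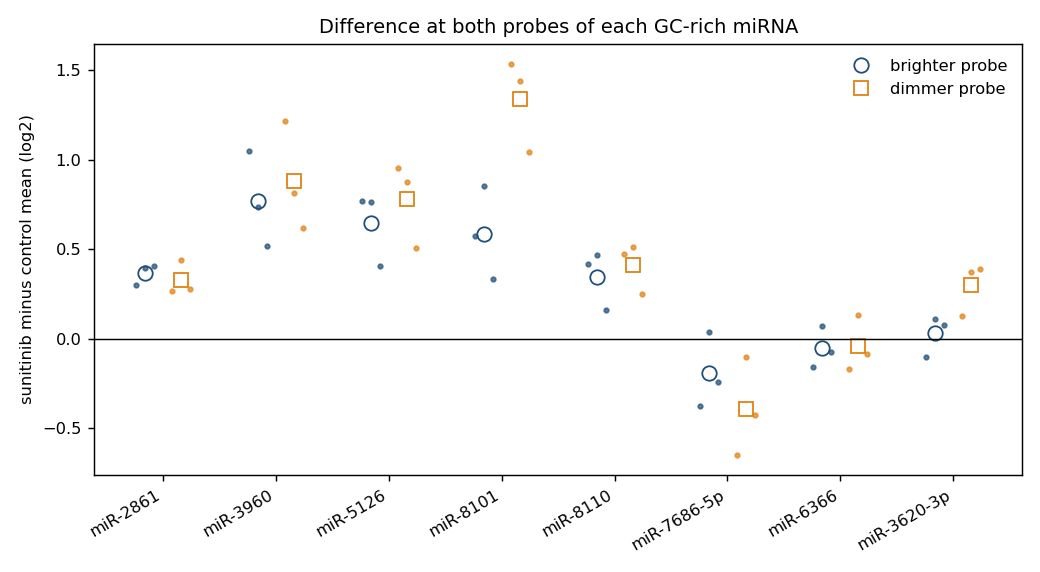
Difference from the control mean (y axis, log2) at the brighter (blue circles) and the dimmer (orange squares) probe of each miRNA on the x axis; open symbols are the mean over 3 sunitinib samples and dots the single samples. Both probes lie on the same side of 0 for all 8 miRNAs, and those of miR-8101 are farthest apart, at 0.59 and 1.34.

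Spots of 1 probe on 1 array had a median SD of 0.06 to 0.36 over the 16 probes on the log2 scale. It was 0.09 for the brightest probe of miR-3960, 0.07 for that of miR-5126 and 0.18 for that of miR-2861.

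In the authors' deposited value table the groups were also apart for the 5 members named above as not overlapping. Its values for miR-3960 were 6.03, 6.14 and 6.06 in control and 7.14, 6.84 and 6.62 in sunitinib, a difference of 0.79. miR-8101 read 4.15, 4.19 and 4.17 in control and 5.30, 5.19 and 4.81 in sunitinib in the authors' deposited table, a difference of 0.93 that passed there (limma adjusted p = 0.0096). miR-5126 differed by 0.68 in the authors' deposited table and did not pass (limma adjusted p = 0.063). In the authors' deposited table the sunitinib samples were above all controls for miR-3620-3p too, with a difference of 0.19.

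The calls also moved with the processing. Over 23 alternative settings, given in the closing section, the threshold was passed in 15 by miR-3960, in 12 by miR-5126, in 6 each by miR-2861 and miR-8101 and in 1 by miR-8110. No member passed when any 1 of the 3 control samples was left out, with differences between 0.35 and 0.79 for the 3 that rose.

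**Figure D3:**
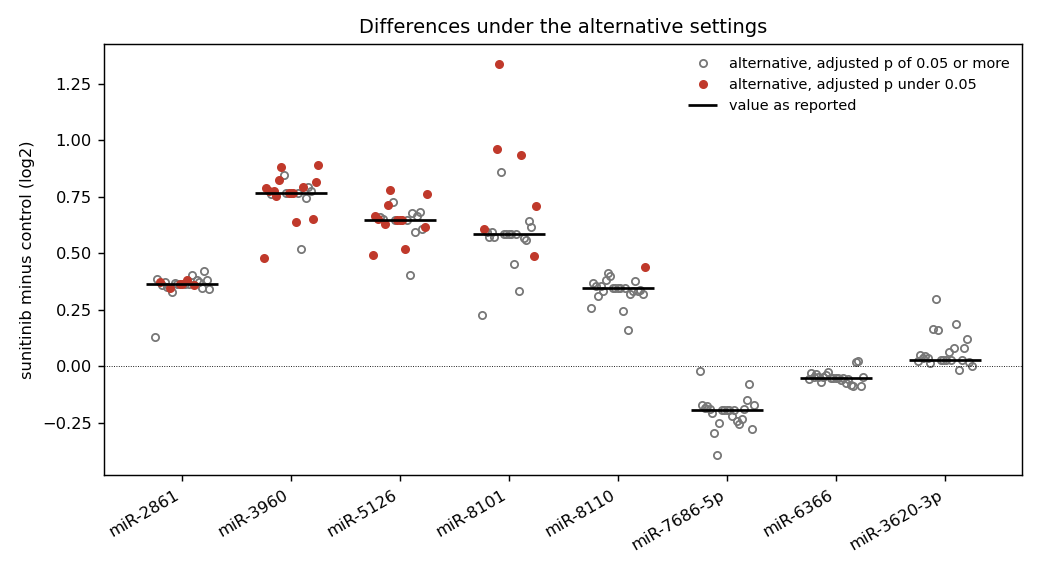
Difference between sunitinib and control (y axis, log2) of each of the 8 miRNAs under 23 alternative settings; black lines are the values as reported, filled red points passed a limma adjusted p of 0.05 and open grey points did not. All points of miR-2861, miR-3960, miR-5126, miR-8101 and miR-8110 lie above 0, and those of miR-7686-5p below 0.

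The position of the arrays on the slide moved with the groups. All 3 control arrays and sunitinib replicate 3 lay in slide row 2, and sunitinib replicates 1 and 2 lay in row 1. Of the 5 members whose groups did not overlap, 4 had their lowest sunitinib value in replicate 3, with miR-2861 as the exception. Within row 2, sunitinib replicate 3 exceeded every control for these 5 members, which follows from their groups not overlapping. It lay over the control mean by 0.16 (miR-8110), 0.33 (miR-8101), 0.40 (miR-2861 and miR-5126) and 0.52 (miR-3960). For miR-7686-5p, miR-6366 and miR-3620-3p it differed from the control mean by -0.24, -0.07 and 0.08. With slide row as a block no member passed, with a limma adjusted p of 0.246 for miR-2861, of 0.254 for miR-5126 and of 0.335 for miR-3960. Row 1 holds no control array, so there slide row and treatment cannot be told apart, and the comparison within row 2 rests on 1 sunitinib sample.

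Probe composition was compared over the other tested miRNAs. The 61 tested miRNAs with a brightest probe of 60% to under 80% G and C had a median difference of -0.04, with 1 higher (miR-210-3p, a hypoxia-induced miRNA, 0.37), 0 lower and 13.1% with sunitinib samples above all controls. The 31 with a probe under 40% G and C had a median of 0.04, with 0 higher and 2 lower (miR-511-3p and miR-142a-3p). Across the 237 tested miRNAs the share of G and C and the difference had a Pearson r of 0.11 and a Spearman rho of -0.05, and across the 229 that are no members of 0.0017 and -0.11. These correlations run across miRNAs that share arrays and are not independent replicates.

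Around the limit of 80% the values were mixed on either side. Just inside, the 4 members at 81.8% and 83.3% ranged from -0.19 to 0.59. Just outside, 5 miRNAs at 76.9% ranged from -0.04 to 0.75. The highest of these, named after its value was seen, was miR-3102-5p, with 4.56, 5.05 and 4.54 in control and 5.68, 5.63 and 5.10 in sunitinib (limma adjusted p = 0.114). The pair of tested non-members with probes of up to 12 bases, miR-709 and miR-1224-5p, differed by -0.03 and -0.02.

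**Figure D4:**
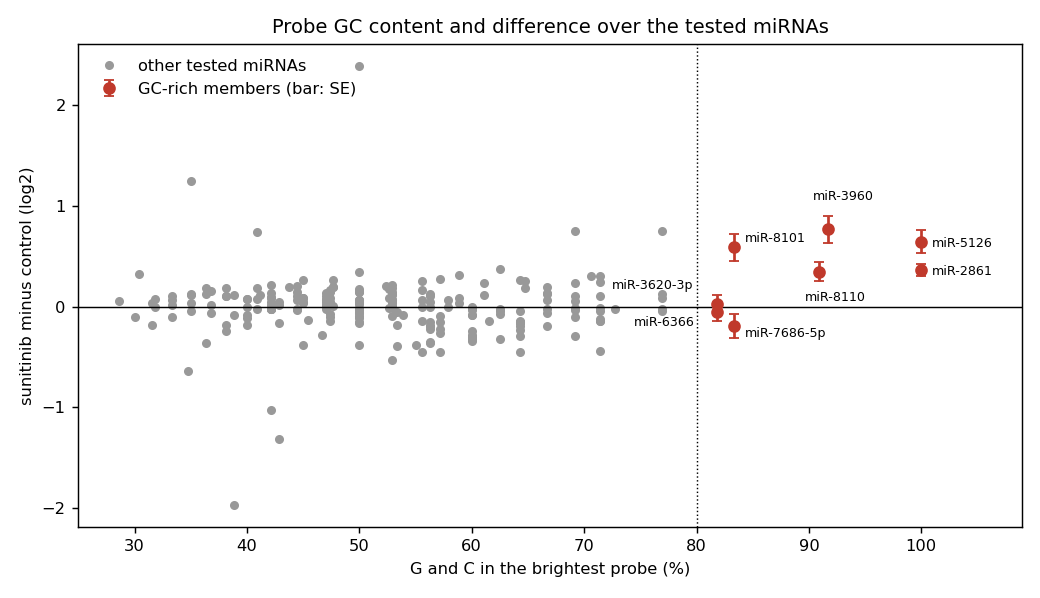
Share of G and C in the brightest probe (x axis, %) against the difference between sunitinib and control (y axis, log2) for 237 tested miRNAs; the 8 GC-rich miRNAs are red with SE bars, the other 229 grey, and the dotted line marks 80%. The 8 miRNAs right of the line spread from -0.19 to 0.77, and the 229 grey points have a Pearson r of 0.0017.

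Of the 39 GC-rich miRNAs that could not be tested, 36 were well above background on 0 of 6 arrays. Their scaled signals differed by a median of -0.04, with 14 of 39 above 0, and sunitinib samples lay above all controls in 4 and below in 4. Near background these values carry little information about level.

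For comparison, of 14 miRNAs known around Runx2 in bone-forming cells, beside the miR-2861 and miR-3960 pair, 8 were tested and 0 passed in limma, also 0 at an unadjusted p under 0.05, with a median of 0.05. Of the 8, 5 were above 0. Those with the lowest unadjusted p were miR-23a-3p at 0.17, miR-30c-5p at 0.15, miR-133a-3p at 0.11 and miR-204-5p at -0.09. Of 19 late-numbered miRNAs often bright on this array type, 7 were tested and 0 passed in limma, 1 at an unadjusted p under 0.05, with a median of -0.02. Examples are miR-5100 at -0.44, miR-3968 at -0.34, miR-1895 at 0.14 and miR-7118-5p at 0.11.

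The mean over the 8 members ran most closely over the 6 arrays with let-7a-5p (Pearson r 0.960), miR-29c-5p (0.956), miR-211-3p (0.950), let-7d-3p (0.937) and miR-30c-2-3p (0.933), as a description over samples that fall into 2 groups. Their differences were 0.11, 0.20, 0.75, 0.25 and 0.15, none past the threshold. Their probes are 35% to 69.2% G and C, below the limit that chose the members.

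The tissue label was checked on marker miRNAs. All 4 heart muscle miRNAs checked, miR-1a-3p, miR-133a-3p, miR-208a-3p and miR-499-5p, were detected on all 6 arrays, and miR-122-5p of liver and miR-124-3p and miR-9-5p of brain on 0 of 6. Of 6 blood cell miRNAs, all detected on every array, 2 were lower in sunitinib, miR-142a-3p and miR-223-3p, while 4 did not pass. The summed scaled signal of the 6 ran from 4039 to 5517 in control and from 4886 to 5086 in sunitinib. miR-451a is the brightest of the 6 (log2 11.43 to 12.07) and weighs most in this linear sum. The sum shows little of a fall in miR-223-3p (6.91 to 8.47) or miR-142a-3p (6.10 to 6.96). The part of blood cells in the members' differences was not tested. Arrays had 234 to 252 miRNAs well above background, and scaling moved single arrays by -0.22 to 0.17 on the log2 scale, with both signs in each group.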

How the data were processed

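The authors deposited 1 scanner file per sample with spot intensity on a linear scale, background-subtracted by Agilent Feature Extraction (version 10.7.1.1 and build mm9 per the file headers, version 10.7 per the submitters' processing notes). They also deposited a table of log2 values, used here as an alternative; neither its scale nor its centring is stated in the sources. Its columns have medians from 2.195 to 2.200.

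Control spots and spots marked as outliers were left out. The processed signal was scaled to the 75th percentile over 393 probes well above background on all 6 arrays, floored at 1, log2-transformed and then averaged per probe. A probe was detected where at least 50% of its spots were well above background, and each miRNA was represented by its brightest probe. Testing required detection on all 3 arrays of either group. limma 3.58.1 (lmFit, eBayes) in R 4.3.3 compared the groups over 237 miRNAs. The fit was tested on simulated data. The number of arrays limits the precision.

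All 8 members are named. From each comparison list up to 4 miRNAs were named by unadjusted p. The 23 alternatives changed the scaling, the background correction, the filter, the floor, the choice of probe, the variance model, blocks or the source table, or left out a sample. The members and lists were chosen with earlier results of these data known. Sequences are from the scanner files and RefSeq (GRCm38.p6).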

Additional observations from a re-analysis of the deposited data

How the results depend on the processing

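Over the 23 alternatives miR-2861, miR-3960, miR-5126, miR-8101 and miR-8110 stayed above 0 and miR-7686-5p below 0. miR-3960 passed in 15 (0.48 to 0.89), miR-5126 in 12 (0.40 to 0.78), miR-2861 in 6 (0.13 to 0.42), miR-8101 in 6 (0.23 to 1.34) and miR-8110 in 1 (0.16 to 0.44). miR-7686-5p, miR-6366 and miR-3620-3p passed in none. Where a call changed, the cause was not tested.

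Values of the members that no longer passed, in the order miR-2861, miR-3960 and miR-5126, were 0.36, 0.76 and 0.66 with quantile normalization, 0.37, 0.85 and 0.73 with the summed signal of the scanner software, 0.37, 0.77 and 0.65 without a filter, and 0.40, 0.52 and 0.40 with slide row as a block. Nothing in the labels says whether samples with the same replicate number belong together. Correlations of same-numbered samples were 0.18, 0.22 and -0.06, which cannot settle it. With the replicate block the values were 0.37, 0.77 and 0.65, and none passed (limma adjusted p = 0.151). Without scaling miR-2861 had 0.37 and miR-5126 0.65. miR-2861 alone lost its call with normexp (0.13), the percentile over all probes (0.39), the percentile without the members' probes (0.35), the dimmer probe (0.33) and a variance trend (0.37), and miR-5126 alone with the deposited table (0.68). miR-8101 gained one with the percentile over all probes (0.61), the mean of all probes (0.96), the dimmer probe (1.34) and the deposited table (0.93). Its dimmer probe, whose control values are mostly not well above background, also enters the mean of all probes.

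Leaving out 1 sample moved miR-2861 between 0.34 and 0.42, miR-3960 between 0.65 and 0.89, miR-5126 between 0.60 and 0.76, miR-8101 between 0.49 and 0.71 and miR-8110 between 0.32 and 0.44. miR-6366 lay between -0.088 and 0.024 and miR-3620-3p between -0.014 and 0.12. miR-2861 passed in 0 of these 6 fits, miR-3960 in 3, miR-5126 in 2, miR-8101 in 2 and miR-8110 in 1. No member passed without any 1 control sample.

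The members called higher, 3 as reported, were 0 with quantile normalization, the summed signal, no filter, the replicate block and slide row, and 1 without scaling. Without a sample they ran from 0 to 4. The tested miRNAs called higher, 4 as reported, were 8 with the percentile over all probes, 2 with normexp, 0 with quantile normalization, 1 without scaling, 2 without the members' probes in the scaling, 1 with the summed signal, and 0 with no filter or either block. Without a sample they ran from 0 to 12. Those called lower, 4 as reported, were 2 with normexp, 7 with the mean of all probes, 1 with the summed signal, 7 with array weights, 2 with the replicate block and 1 with slide row, and 2 to 5 without a sample. The members' median of 0.36 became 0.18 with normexp, whose added offset of 50 by construction shrinks log2 differences of dim values, and 0.25 with slide row.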

Other observations

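The letters GGCGG occur in the stretch opposite the brightest probe for 3 members, miR-2861, miR-3960 and miR-5126, which are the 3 that rose, and in 0 of the 229 other tested miRNAs. The motif was picked after these values were seen, so this is a description with no test. It was searched on the miRNA strand only, in the complement of the brightest probe, and 0.691% of all 1881 miRNAs on the arrays hold it. Nearer in composition are the 39 untested miRNAs with a probe of at least 80% G and C, of which 4 (10.3%) hold it. Their differences were 1.14 (miR-6538), 0.44 (miR-149-3p), 0.005 (miR-7044-5p) and -0.02 (miR-712-5p). GGGG, searched the same way and able to overlap it, occurs in 5 of the 8 members, among them miR-7686-5p and miR-6366. It occurs in 5.64% of all miRNAs, in 7.42% of the tested non-members and in 20.5% of the 39 untested miRNAs nearer in composition.

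Another 10 miRNAs with GGCGG opposite the probe were not tested. Of these miR-6538 was detected in 2 sunitinib samples and no control sample, with 2.82, 3.07 and 3.04 in control and 4.50, 3.89 and 3.96 in sunitinib. miR-712-5p was detected on 2 of 6 arrays with a difference of -0.02, and the other 8 on none. Over the 10 the median difference was 0.15, with 8 above 0. Sunitinib samples were above all controls in 4 of the 10 and below in 0. The share of 18.1% above among all tested miRNAs comes from detected miRNAs, an unlike set. Of the 39 untested miRNAs with a probe of at least 80% G and C, some of them among the 10, 4 were above and 4 below. The 4 above with GGCGG are miR-6538 and, detected on 0 arrays, miR-149-3p, miR-292b-5p and miR-7049-5p. Near background such values carry little information about level.

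miR-3091-5p, also with a probe of at least 80% G and C, read 0.29, 0.51 and 0.35 in control and 3.53, 1.85 and 2.18 in sunitinib. It was well above background on 1 of 6 arrays. Its difference of 2.14 is the largest of the 39 untested miRNAs with such a probe, whose median was -0.04 with 14 above 0. It is named for that value, and its control values lie near background.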
